A study of Homo sapiens with 3 samples.

Results

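Long non-coding RNAs (lncRNAs) are transcripts without a translated open reading frame, and many of their promoters lie apart from any protein-coding promoter. The promoter fragments described here are the HindIII restriction fragments that held at least 1 annotated lncRNA transcript start and no protein-coding transcript start. Of 19075 promoter fragments with an interaction in any of 3 replicates, 1803 were of this kind, called lncRNA-only below. They were compared with 14036 fragments that held a protein-coding start, of which 3520 also held a lncRNA start. The remaining 3236 fragments held neither. Fragments were assigned to a class from GENCODE annotation on GRCh37 alone, and a fragment without any listed interaction could not enter either class.

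Promoter capture Hi-C (PCHi-C) ligates crosslinked DNA ends that lie near each other in the nucleus and then captures the ligation products of promoter fragments. It was run on 3 biological replicates of cardiomyocytes derived from human embryonic stem cells (hESC-CMs), all made from the H9 (WA09) line with a commercial differentiation kit and enriched in lactate medium without glucose. The submitters checked purity by flow cytometry and qPCR for MYH7 and TNNT2. There was 1 cell line and 1 condition, and contact data hold no expression, so the labelled cell type could not be checked against marker genes here. A CHiCAGO score measures how far the reads joining a promoter fragment to another fragment, its promoter-interacting region (PIR), exceed a distance-dependent background. Scores under 5 were not listed, so a pair without a line may still be in contact. In bulk cells a score does not tell contact in more cells from more frequent contact within each cell.

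Many lncRNAs act in the nucleus, on genes beside them, on chromatin or in nuclear bodies, and others carry microRNAs or small nucleolar RNAs within their introns or exons. For some loci the DNA of the lncRNA promoter, rather than its RNA, is known to act on neighbouring genes. Contacts of such promoters can therefore concern the lncRNA itself, its neighbours or both, and contact calls do not separate these.

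Promoter sequences of 3 lncRNAs to which the results below return are shown, since the members ranged from CpG-poor promoters to CpG islands. Each holds 250 bases before and 50 bases from the annotated start, read from GRCh37 and written 5′ to 3′ on the strand of the gene, with every CpG in capitals. LINC02880 (chr6:114225052-114225351, plus strand) had the most PIRs called in all 3 replicates. LINC01116 (chr2:177502454-177502753, minus strand) contacted the HOXD cluster, and NEAT1 (chr11:65190019-65190318, plus strand) contacted MALAT1.
LINC02880: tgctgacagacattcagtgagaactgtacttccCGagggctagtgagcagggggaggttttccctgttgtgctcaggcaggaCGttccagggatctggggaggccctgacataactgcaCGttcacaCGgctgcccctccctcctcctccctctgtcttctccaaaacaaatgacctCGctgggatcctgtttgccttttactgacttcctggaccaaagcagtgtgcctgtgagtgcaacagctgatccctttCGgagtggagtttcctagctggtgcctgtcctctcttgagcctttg
LINC01116: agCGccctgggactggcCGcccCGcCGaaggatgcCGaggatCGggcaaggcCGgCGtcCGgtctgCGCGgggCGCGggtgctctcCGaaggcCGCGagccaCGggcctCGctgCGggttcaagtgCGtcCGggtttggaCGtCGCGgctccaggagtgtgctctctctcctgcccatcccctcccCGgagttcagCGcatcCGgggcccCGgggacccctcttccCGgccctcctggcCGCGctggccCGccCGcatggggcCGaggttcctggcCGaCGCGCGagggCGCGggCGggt
NEAT1: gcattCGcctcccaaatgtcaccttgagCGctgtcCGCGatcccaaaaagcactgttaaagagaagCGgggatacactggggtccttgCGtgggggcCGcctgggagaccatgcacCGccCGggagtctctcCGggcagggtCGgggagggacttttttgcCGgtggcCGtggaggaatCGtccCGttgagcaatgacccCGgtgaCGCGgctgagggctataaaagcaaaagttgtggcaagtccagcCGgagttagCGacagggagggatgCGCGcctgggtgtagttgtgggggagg
They held 6, 41 and 22 CpGs in that order, at a GC content of 55.3%, 76.3% and 62.0%.

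Most lncRNA promoters on the members were CpG-poor, unlike most coding promoters. Around 1710 canonical lncRNA starts on the members, the median window of this length held 3 CpGs (quartiles 2 and 7), compared with 24 (quartiles 13 and 33) around 13812 canonical coding starts. Windows with a GC content over 50% and an observed over expected CpG ratio over 0.6 made up 9.88% of the lncRNA windows and 70.5% of the coding windows. Searched on both strands, GGGCGG, the core of the GC box, was in 13.0% of lncRNA windows and 64.9% of coding windows. TATAAA was in 17.3% of lncRNA and 8.54% of coding windows, and AGATAA, known as a binding motif of the GATA factors, in 15.8% and 6.55%. Over the windows of both classes together the 3 shares were 59.2%, 9.50% and 7.58%. The median GC content was 46.3% in lncRNA windows and 64.3% in coding windows, and the shares were not adjusted for it. Matches may overlap, and they describe letters, not bound sites. Of the 3 windows shown, those of LINC01116 and NEAT1 held GGGCGG, that of NEAT1 also held TATAAA, and that of LINC02880 held none of them.

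The members carried 1900 lncRNA genes. A single lncRNA gene started on 1663 of them, and 140 held 2 or more, up to 7. SNHG14, a long imprinted host of small nucleolar RNAs, started on 14 member fragments, the most of any gene. In all, 761 members (42.2%) overlapped no protein-coding gene, 1362 (75.5%) had no coding start within 5 kb, and 274 (15.2%) also held the start of a gene of another kind, including microRNAs on 77, small nucleolar RNAs on 62 and small nuclear RNAs on 55. Members lay where coding genes were sparser, with a median of 6 coding gene starts within 500 kb compared with 11 for coding fragments. These counts include starts on the fragment itself, which members lack by definition, so part of this gap follows from the rule. They were also shorter, with a median of 5753 bp (123 to 75350 bp) compared with 7032 bp.

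The mean number of interactions differed little between members and coding fragments, while the median within a replicate was lower for members. The 3 replicates listed 10606, 10461 and 10586 interactions of members, and 1472, 1473 and 1488 members had a call. The mean number of PIRs per member was 5.88, 5.80 and 5.87, in all 5.85 ± 0.0436 (SD, n = 3), compared with 5.94 ± 0.0723 for coding fragments. It was lower in members in 3 of 3 replicates, a difference of -0.0897 ± 0.0424 and about the size of the replicate SDs. The median was 2 PIRs per member and 3 per coding fragment in each of the 3 replicates. Differences between the classes were tested within replicates by an exact two-sided sign-flip permutation test, in which 3 replicates cannot give a p below 0.25. Class differences printed with an SD had p = 0.25 by this exact test unless another p is given, and values set side by side without one were not tested separately. Over the union of the replicates, both classes had a median of 6 PIRs (quartiles 2 and 13).

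Of 19149 member interactions in the union, 4549 (23.8%) were called in all 3 replicates, against a background of 23.9% of the interactions of all promoter fragments. Another 3406 (17.8%) had a call in 2 of them, and 11194 (58.5%) in 1 only. Members with any interaction in all 3 replicates numbered 789 (43.8%; background 45.6%). PIRs were unevenly spread. One PIR was listed for 272 members (15.1%; background 14.8%), and 20 or more for 265 (14.7%; background 14.6%). Of the interactions called in all 3 replicates, 124 members held 50%, and the 10 with the most held 8.42%. Mean PIRs per member fell from 6.58 ± 0.135 in the quartile of fragments with the fewest coding gene starts within 500 kb to 4.50 ± 0.132 in that with the most, and from 6.55 ± 0.123 in the shortest to 4.81 ± 0.124 in the longest quartile of fragment length. Across the 1803 single members the rank correlations with PIRs in the union were weak (Spearman's rho of -0.0826 with length and -0.0787 with gene density, for fragments that share libraries and are not independent).

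Contacts of members spanned longer distances than those of coding fragments. The median distance between the midpoints of interacting fragments was 621, 612 and 668 kb in replicates 1, 2 and 3 for members, and 497, 505 and 530 kb for coding fragments. The lowest member value exceeded the highest coding value, and the difference was 123 ± 15.8 kb. Distances over 1 Mb made up 35.4% ± 1.12 of the same-chromosome interactions of members and 32.1% ± 1.34 of those of coding fragments, but at a score of at least 10 the difference was -1.19 ± 1.05 percentage points. By distance class, members had less at 100 to 250 kb (13.4% ± 0.262 against 18.8% ± 0.463) and more at 500 to 1000 kb (23.4% ± 0.358 against 18.6% ± 0.266). They also had less beyond 10 Mb (4.17% ± 0.280 against 5.38% ± 0.465) and between chromosomes (2.21% ± 0.282 against 2.88% ± 0.137). Fragments with neither kind of start had a median distance of 836 ± 53.9 kb and 45.8% ± 1.54 over 1 Mb, both above those of members.

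**Figure D1:**
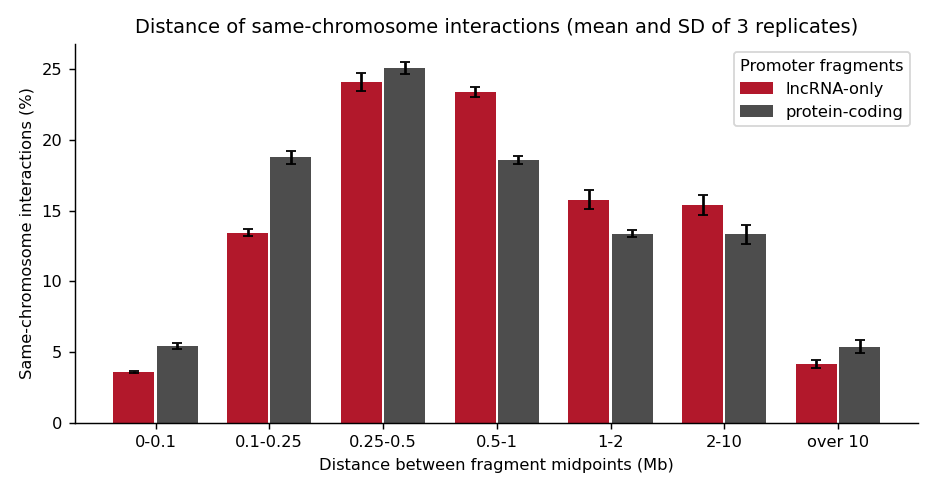
Share of same-chromosome interactions (%) by distance between fragment midpoints, for lncRNA-only (red) and protein-coding (grey) promoter fragments; bars are means and error bars SDs of 3 replicates. Members have the lower share at 0.1 to 0.25 Mb (13.4% against 18.8%) and the higher share at 0.5 to 1 Mb (23.4% against 18.6%).

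The other ends of member contacts lay more often outside coding genes than those of coding fragments. The PIR overlapped no protein-coding gene in 53.1%, 52.6% and 53.7% of member interactions, compared with 40.0%, 40.3% and 40.2% of those of coding fragments, a difference of 13.0 ± 0.644 percentage points. It was itself a coding promoter fragment in 5.68% ± 0.110 of member interactions and 8.80% ± 0.0637 of coding ones, a difference of -3.13 ± 0.132 percentage points. In fragments with neither kind of start these shares were 50.4% ± 0.221 and 6.29% ± 0.316, nearer to members than to coding fragments. The share of a replicate's interactions that was called in all 3 was 43.1% ± 0.322 for members and 44.6% ± 0.541 for coding fragments, and the median score was 6.62 ± 0.0200 and 6.66 ± 0.00577. The share of called fragments with 1 PIR was 24.1% ± 1.53 and 23.8% ± 0.768 (p = 0.75, exact sign-flip permutation test), within the spread between replicates.

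**Figure D2:**
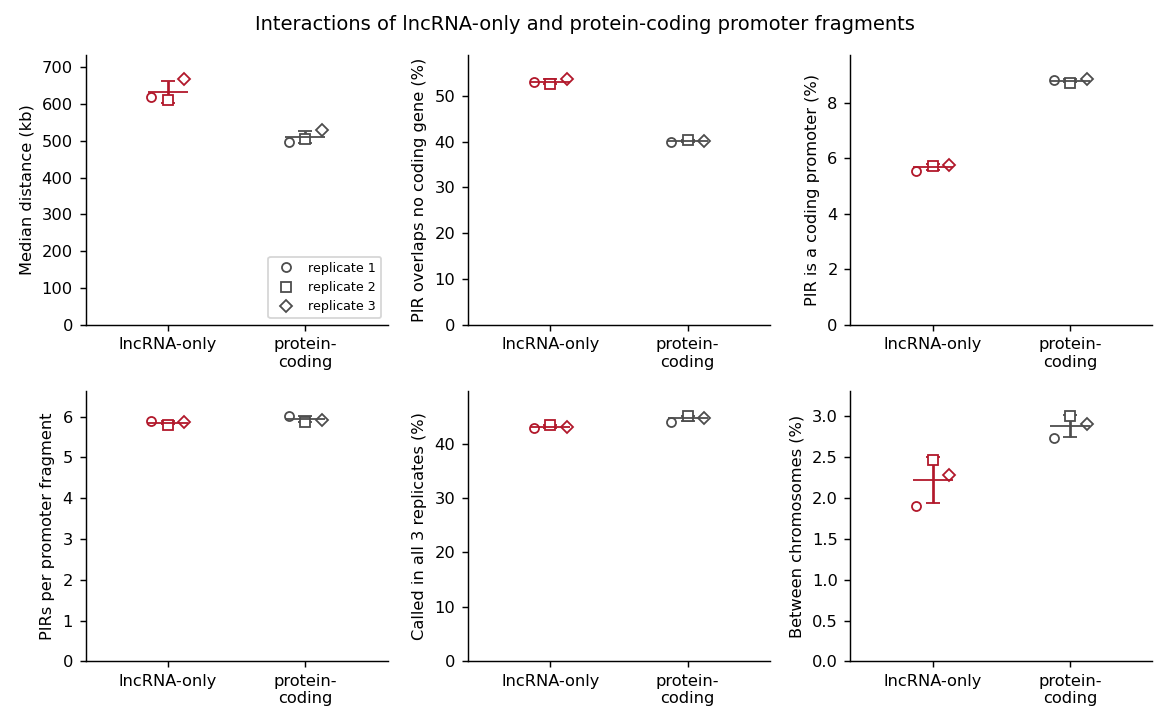
Each panel gives 1 measure of the interactions of lncRNA-only (red) and protein-coding (grey) promoter fragments on an axis from 0; symbols are the 3 replicates, bars the mean and SD. The classes are apart in median distance, in PIRs that overlap no coding gene (53.1% against 40.1%) and in PIRs that are coding promoters (5.68% against 8.80%), and close in PIRs per fragment (5.85 against 5.94).

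These differences moved with gene density. Fragments were divided into quartiles by the number of coding gene starts within 500 kb, those on the fragment itself included. In the sparsest quartile (at most 6 starts, 902 members) the median distance was 922 ± 23.4 kb for members and 789 ± 26.2 kb for coding fragments. In the next (at most 11 starts, 450 members) it was 480 ± 10.5 and 511 ± 16.8 kb, in the third (at most 21 starts, 289 members) 287 ± 3.20 and 354 ± 11.4 kb, and in the densest (162 members) 290 ± 1.96 and 275 ± 7.22 kb. The median was thus longer for members in the sparsest and densest quartiles and shorter in between, and the mean of the 4 differences was 12.7 kb. The share over 1 Mb was higher in members in the sparsest quartile (by 3.83 ± 0.182 percentage points) and lower in the other 3, by -5.69 ± 0.480, -8.01 ± 0.664 and -4.14 ± 1.6 in order of density, so that the mean of the 4 differences, -3.50 ± 0.459, was opposite in direction to the difference over all members. The share of PIRs that were coding promoters was 3.16% ± 0.107, 5.30% ± 0.195, 12% ± 0.657 and 16.0% ± 1.40 in members from the sparsest to the densest quartile. In coding fragments it was 3.25% ± 0.0588, 7.2% ± 0.165, 11.4% ± 0.0801 and 18.8% ± 0.217. Members were thus lower in the second and the densest quartile, higher in the third by less than the SD of the difference, and of mixed sign between replicates in the sparsest (p = 0.50, exact sign-flip permutation test). The mean of these 4 differences was -1.05 ± 0.162. The excess of PIRs outside coding genes was 12.3 ± 0.424, 7.34 ± 1.63, 0.927 ± 0.881 and 3.15 ± 1.25 percentage points in the same order, with a mean of 5.93 ± 0.489. In the third quartile it was positive in 2 of 3 replicates (p = 0.50, exact sign-flip permutation test). In the sparsest quartile members had 6.58 ± 0.135 PIRs per fragment and coding fragments 8.53 ± 0.111, a difference of -1.96 ± 0.0301 and larger than that over all members. The 76 members without any coding gene start within 500 kb had 3.23 ± 0.134 PIRs each at a median distance of 1504 ± 199 kb, and 21.2% ± 0.865 of their interactions were called in all 3 replicates. Within quartiles of fragment length the difference in distance was positive in each, from 51.4 to 163 kb. Mean PIRs per fragment were lower in members in the 3 shorter quartiles (by up to -0.698 ± 0.0247) and higher in the longest (by 0.580 ± 0.178).

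They moved with promoter sequence too. The 153 members with a CpG-rich window, as defined above, had 7.11 ± 0.0113 PIRs each, compared with 5.73 ± 0.0505 for the 1442 with CpG-poor windows only. Their PIRs were coding promoters in 9.16% ± 0.278 of interactions, compared with 5.58% ± 0.157. Gene density differed along with the sequence, at a median of 10 and 6 coding starts within 500 kb, and its part in these differences was not tested. Only fragments with a canonical start of their class were grouped, among them 8514 CpG-rich and 3446 CpG-poor coding fragments. The 208 members left out had a median distance of 817 ± 65.6 kb, compared with 610 ± 12.7 kb for the 1595 grouped. Their PIRs overlapped no coding gene in 63.3% ± 1.49 of interactions, compared with 51.8% ± 0.491. Among CpG-poor promoters only, the median distance was 616 ± 9.83 kb for members and 644 ± 33.7 kb for coding fragments, a difference of -27.6 ± 28.8 kb within the replicate spread (p = 0.50, exact sign-flip permutation test). Among CpG-rich promoters only, members had 1.00 ± 0.0842 more PIRs per fragment than coding fragments and a higher share of coding promoter partners (9.16% ± 0.278 against 8.40% ± 0.126). The median distance of CpG-rich members was longer than that of CpG-rich coding fragments (572 ± 39.2 against 478 ± 11.3 kb). Among CpG-poor promoters members had the lower share of coding promoter partners (5.58% ± 0.157 against 10.5% ± 0.0739). The excess of PIRs outside coding genes was present in both, at 7.46 ± 0.392 percentage points among CpG-poor and 14 ± 0.715 among CpG-rich promoters.

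**Figure D3:**
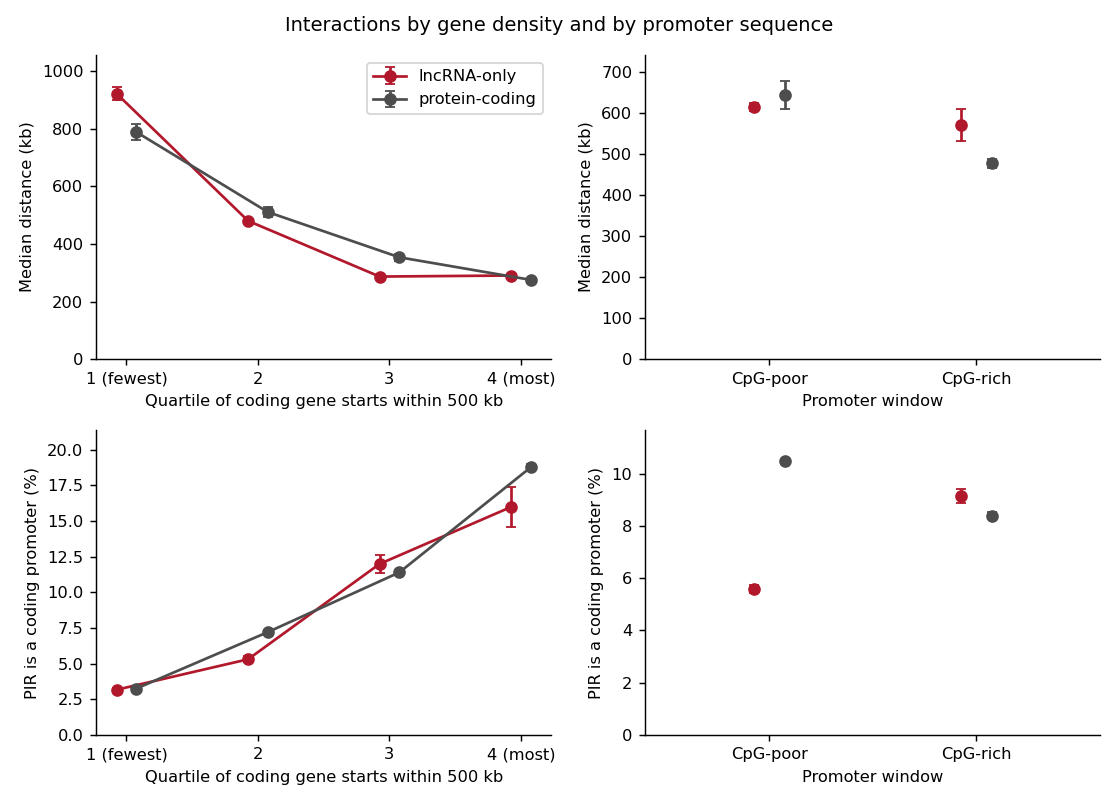
Median distance of same-chromosome interactions (kb, top) and share of PIRs that are coding promoters (%, bottom) by quartile of coding gene starts within 500 kb (left) and by CpG content of the promoter window (right); points are means and error bars SDs of 3 replicates, red for lncRNA-only and grey for protein-coding fragments. In the sparsest quartile the distances are 922 and 789 kb, and among CpG-poor promoters 616 and 644 kb.

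Members also differed by their position relative to coding genes. The 761 outside coding genes had 6.10 ± 0.0626 PIRs each and the 1042 overlapping one 5.67 ± 0.0308, a difference of 0.436 ± 0.0352. Interactions between chromosomes made up 2.97% ± 0.436 of the former and 1.62% ± 0.221 of the latter. The 274 members with a start of another gene kind had 4.69 ± 0.0970 PIRs each, a median distance of 512 ± 10.2 kb and coding promoters at 8.74% ± 0.435 of their PIRs, compared with 6.06 ± 0.0667, 660 ± 29.4 kb and 5.25% ± 0.184 for the other 1529. In fragments of the former kind a contact cannot be assigned to the lncRNA rather than to the small RNA gene or pseudogene.

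Coding promoters were found at the other end of member contacts far beyond the nearest one. In all 3 replicates, 165 members (9.15%; background 12.1%) contacted a coding promoter, in 275 contacts with 260 coding fragments. All 275 were on the same chromosome, at a median distance of 310 kb, with 245 over at least 100 kb and 34 over more than 1 Mb. A contact between a pair of promoter fragments is listed in 1 order only, and with both orders counted 404 members (22.4%) had a coding partner, compared with 28.2% of coding fragments. The nearest coding promoter fragment, leaving out any that directly adjoined, lay at a median of 65.1 kb from a member and 48.6 kb from a coding fragment. Replicates 1, 2 and 3 listed a contact with it for 49, 53 and 54 members, or 2.88% ± 0.147, and for 2.84% ± 0.123 of coding fragments, closer than the spread between replicates. Counted in both orders the shares were 5.95% ± 0.169 and 5.63% ± 0.181, and 74 members (4.10%) contacted the nearest coding promoter in all 3 replicates. Members contacted one another in 45 pairs called in all 3 replicates.

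PIRs of members were often PIRs of coding promoters as well. In a given replicate 44.9% ± 0.186 of member interactions had a PIR that was also called for a coding fragment, compared with 47.6% ± 0.519 of the interactions of coding fragments with a PIR called for another coding fragment. The difference was -2.65 ± 0.439 percentage points. For the nearest coding fragment alone, again without adjoining ones, the shares were 22.3% ± 0.274 and 21.0% ± 0.140, higher for members in 3 of 3 replicates by 1.26 ± 0.345. PIRs also lay side by side, and 51.7% ± 0.466 of member interactions reached a fragment that adjoined another PIR of the same promoter (coding fragments 51.0% ± 0.473).

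The strongest contact of a member with a coding promoter over at least 100 kb was that of ENSG00000198491, whose fragment at chr3:186924759-186926241 lay outside coding genes. Its contact with SST, the gene of somatostatin, 463 kb away, scored 69.04, 51.1 and 36.2 in replicates 1, 2 and 3. Its contact with ADIPOQ, which encodes adiponectin, 363 kb away on the other side, scored 38.5, 59.6 and 49.7, and that with RTP2, a chaperone of olfactory receptors, 39.1, 70.6 and 36.1. The replicates were not in the same order in the 3 contacts, and every score was at least 7 times the listing threshold. In all, 10 of its 13 PIRs called in all 3 replicates were coding promoters, among them the liver-secreted proteins HRG (12.6 ± 5.40), AHSG (10.5 ± 2.99) and KNG1 (8.26 ± 1.65).

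The fragment of LINC01116 and LINC01117 at chr2:177501443-177506085 contacted the HOXD cluster, which encodes homeobox factors of the body axis and limb, about 500 kb away. Its contact with the HOXD3 fragment scored 35.1, 32.5 and 31.8, close to one another, and those with HOXD8, HOXD9 and HOXD4 had mean scores of 19.3 ± 0.713, 18.2 ± 1.32 and 12.8 ± 3.20. HOXD10 and HOXD11 share a fragment that scored 13.2 ± 3.27, and a further HOXD11 fragment scored 8.12 ± 1.27. No coding start lay nearer to this member than that of MTX2, 370 kb away. Of its 17 PIRs called in all 3 replicates, 6 were coding promoters, all of them in HOXD.

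LINC01182 (chr4:13656172-13660692) contacted CPEB2, a regulator of mRNA polyadenylation and translation, over 1348 kb, with scores of 32.6, 54.9 and 33.2, the second replicate being the highest. ENSG00000237073, within RGS3 on chromosome 9, contacted the fragment of another RGS3 start 146 kb away with scores of 38.4, 33.8 and 33.1, so that both ends lay in the same gene, a regulator of G-protein signalling. TMEM246-AS1 on the same chromosome contacted NIPSNAP3A over 3280 kb with scores of 23.8, 20.2 and 36.5. It also contacted the olfactory receptor genes OR13D1 (21.6 ± 1.33), OR13C5 (10.3 ± 1.50) and OR13C3 (9.16 ± 5.73), 3067 to 3228 kb away. The other 5 of the 10 strongest were ENSG00000255487 with NSD3, a histone methyltransferase (22.8 ± 1.23), and DDC-AS1 with ZPBP, a sperm protein (22.7 ± 9.06), followed by ENSG00000237002 with FZD8, a Wnt receptor, over 795 kb (21.0 ± 7.11). The last were LINC01514 with the shared fragment of DPCD and POLL (19.4 ± 2.55) and ENSG00000248758 with RGMB, a co-receptor for bone morphogenetic proteins, over 1570 kb (19.1 ± 4.72). The ENSG00000255487 fragment itself overlapped DDHD2 and NSD3, so that both ends of its NSD3 contact, 106 kb apart, lay in the same gene. LINC01514 also contacted FGF8, a growth factor of heart and limb development, with scores of 14.3, 15.5 and 13.4.

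**Figure D4:**
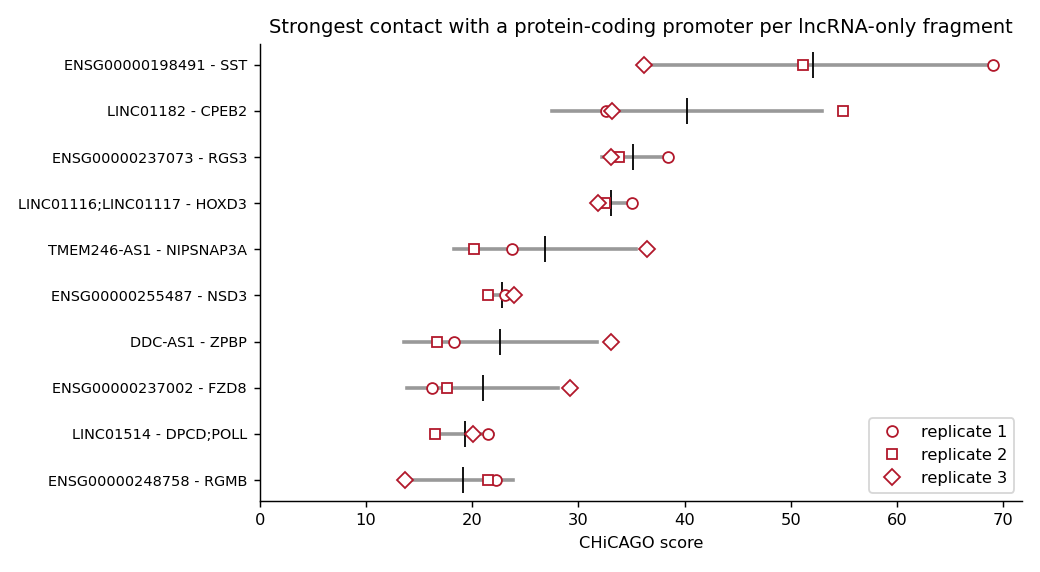
CHiCAGO score (x axis) of the strongest contact with a coding promoter over at least 100 kb for the 10 lncRNA-only fragments that rank highest; symbols are the 3 replicates, ticks the mean and grey lines 1 SD to either side. Scores of ENSG00000198491 with SST run from 36.2 to 69.04, those of LINC01116;LINC01117 with HOXD3 from 31.8 to 35.1.

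The members with the most PIRs in all 3 replicates reached dense blocks of neighbouring fragments. LINC02880 (chr6:114222879-114226021), whose nearest coding start is that of MARCKS, an actin-binding kinase substrate, had 112, 104 and 113 PIRs in replicates 1, 2 and 3, of which 75 were common to all. All 75 lay on one side, from 1091 to 1802 kb away, and 61 of them adjoined another. LAMA4, a laminin chain of muscle and vessel basement membranes, was overlapped by 10, and 48 overlapped no coding gene. ENSG00000233538 (chr2:232316580-232318550), within the annotated span of the nucleolin gene NCL, had 46, 51 and 57 PIRs, 44 of them in all 3, over PSMD1 and ARMC9 at 174 to 394 kb. LNCRNA-IUR (chr11:94879591-94887222) had 53, 45 and 48 PIRs and 43 in all 3. ENSG00000234936 (chr2:43455071-43460452) had 48, 59 and 54 and 35 in all 3, of which 22 lay in THADA. ENSG00000257284 (chr2:143928067-143930329), within ARHGAP15, had 88, 68 and 87 PIRs, and the 34 common to all lay 3168 to 3547 kb away and overlapped no coding gene. The other 5 of the 10 had between 28 and 33 PIRs in all 3 replicates and were MIR124-2HG, ENSG00000254372, ENSG00000223911, LINC01551 and ENSG00000223502, the last with all 28 in PRKG1, a cGMP-dependent kinase gene.

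Members differed in how far these blocks were shared with coding promoters. ENSG00000233538 shared 30 of 44 with NCL, 7.71 kb away between midpoints, ENSG00000234936 shared 21 of 35 with ZFP36L2, an mRNA decay factor 4.77 kb away, and ENSG00000254372 shared 19 of 32 with KHDRBS3 at 3.18 kb. SOX2-OT, in whose intron the pluripotency factor gene SOX2 lies, shared 11 of 20 with SOX2 at 19 kb. All 19 PIRs of TMEM246-AS1, which include its distant coding promoter contacts, were also called for coding fragments. Of these, 15 were shared with GRIN3A, 268 kb away. By contrast, LINC02880 shared 12 of 75, all with MARCKS, and ENSG00000257284, the MIR124-2HG fragments, the LINC00461 fragments and TTN-AS1 shared none of theirs with any coding fragment in all 3 replicates. Over all members 1864 of 4527 (41.2%) same-chromosome interactions in all 3 replicates had such a shared PIR.

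**Figure D5:**
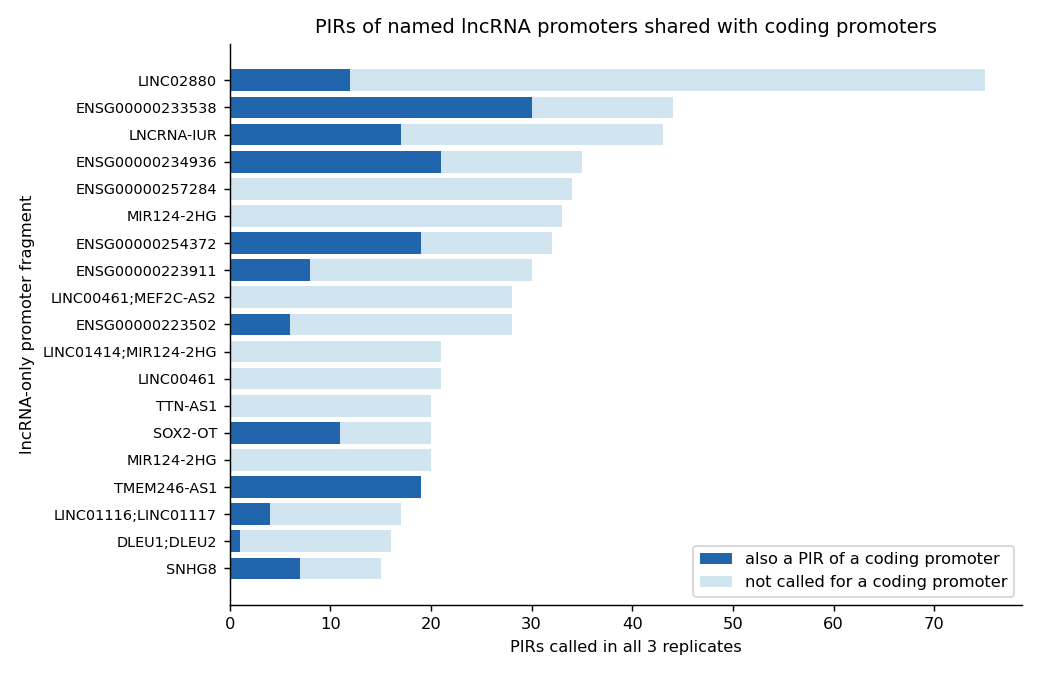
PIRs called in all 3 replicates (x axis) of the named lncRNA-only fragments with at least 15 of them, without LINC01551; dark blue marks those also called in all 3 replicates for a coding promoter fragment, light blue the others. ENSG00000233538 shares 30 of its 44, LINC02880 12 of its 75 and LINC00461 none.

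Among heart and muscle lncRNAs, 7 of 25 listed genes started on a member, 9 on a coding fragment, 7 on no called fragment, and 2 were not found by name. Lists were compiled with earlier results of these data known and are descriptions. TTN-AS1, antisense to the titin gene, had 31, 40 and 24 PIRs in the 3 replicates, and the 20 common to all lay within TTN at 5.81 to 68.8 kb. The fragment that MEF2C-AS2 shares with LINC00461 had 31, 38 and 33 PIRs, 28 in all 3. KCNQ1-AS1 had 4, 10 and 6 PIRs, and its contact with the body of KCNQ1, a cardiac potassium channel gene, 314 kb away scored 9.20, 5.17 and 9.03. All 3 of its PIRs common to the replicates were also called for the CDKN1C fragment, 25.4 kb away. TRDN-AS1, antisense to triadin of the calcium release complex, had 5, 4 and 8 PIRs and 1 in all 3. DNM3OS, a microRNA host, had 3, 2 and 1, and LINCMD1, a muscle lncRNA that hosts MIR133B, had 2, 3 and 2 with none in all 3. ZFAS1 had 1 PIR in 1 replicate. Over the 7 fragments the median was 12 PIRs in the union (1 to 43), and 5 had a PIR in all 3 replicates (background 45.6%). In the listed order, 0 of 7 contacted a coding promoter in all 3 (background 12.1% in the same order). Contacts listed from the coding side are not in that count, and neither count was tested.

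Of 20 listed neural and pluripotency lncRNAs, 5 started on members. They occupied 9 fragments with a median of 48 PIRs in the union (2 to 90), and 8 of the 9 had 20 or more. The background for 20 or more was 14.6% of fragments, and 7 of the 9 belong to 3 genes, so these are not independent. LINC00461, which hosts the neural microRNA miR-9, had 29, 30 and 25 PIRs on one fragment and 31, 38 and 33 on the next, and both had their highest score with the same PIR, 885 and 897 kb away, at 19.2 ± 1.22 and 36.7 ± 3.87. MIR124-2HG, host of the neuronal miR-124, had 43, 39 and 43 on its fragment with the most. SOX2-OT had 25, 28 and 27. RMST was the exception, with 0, 1 and 1.

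Small RNA host genes held 15 of 34 listed genes on 29 member fragments, with a median of 3 PIRs in the union. SNHG14 alone started on 14 of these fragments, so they are not independent. SNHG8 stood above the rest with 54, 57 and 76 PIRs, 15 in all 3, up to 3500 kb away. DLEU1 and DLEU2, host of miR-15a and miR-16, start on 1 fragment (chr13:50653452-50659185) with 21, 25 and 23 PIRs. Of the 16 in all 3, 12 lay in DLEU7 and 3 in RNASEH2B, a ribonuclease subunit gene. Its RNASEH2B promoter contact, over 828 kb, scored 10.7, 12.6 and 14.2, and the fragment beside that promoter 25.6, 31.8 and 27.2. Of the 14 SNHG14 fragments, 3 contacted the promoter of UBE3A, an imprinted ubiquitin ligase gene to which SNHG14 runs antisense, at 350, 337 and 222 kb with mean scores of 10.6 ± 5.74, 7.28 ± 0.573 and 8.38 ± 1.88, and the other 11 had between 1 and 5 PIRs in the union. None of the 18 listed HOX cluster lncRNAs started on a member: 15 shared a fragment with a coding start and 3 had no called fragment.

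Imprinted lncRNAs, with 5 of 15 genes on 13 fragments, had a median of 3 PIRs in the union. Of these fragments, 7 belong to MEG8 and 3 to MEG9, so they are not independent. KCNQ1OT1, which silences neighbouring genes on 1 parental chromosome, had 4, 3 and 4 PIRs, of which 1 was called in all 3 replicates. This PIR was the fragment over CDKN1C, an imprinted cell cycle inhibitor gene, with scores of 5.58, 5.51 and 7.21, near the threshold. A further contact in all 3 replicates, listed from another member 165 kb away, reached the KCNQ1OT1 fragment with scores of 6.84, 5.65 and 5.71. The most PIRs were those of a MEG8 fragment (chr14:101362911-101364464), with 8, 13 and 7 and 6 in all 3 replicates, and its highest score was with a fragment in WDR25 510 kb away, at 7.34, 7.91 and 8.33. H19 had 2, 3 and 2 PIRs and MEG3 1, 2 and 0, with none in all 3 replicates.

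Broadly expressed lncRNAs had a median of 9 PIRs in the union on 9 fragments, from 7 of 22 listed genes. NEAT1, the scaffold of paraspeckles, and MALAT1, found in nuclear speckles, lie near each other on chromosome 11. Each contacted the locus of the other. NEAT1's fragment (chr11:65187886-65190407), on which ENSG00000290057 also starts, had 11, 12 and 9 PIRs, and the one with the highest score, 77.0 kb away, lay in the MALAT1 gene next to its promoter fragment and scored 24.2, 28.9 and 23.6. MALAT1's fragment (chr11:65264540-65265503) had 2, 3 and 3 PIRs, and its highest score, 11.5, 10.5 and 11.9, was with the fragment beside that of NEAT1. The contact between the 2 promoter fragments themselves, listed from NEAT1's side, scored 20.9, 18.7 and 15.7, between the other 2 contacts in every replicate. PVT1, whose coding neighbour is MYC, had 3, 2 and 8 PIRs on one fragment and 4, 2 and 0 on another.

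Contacts with other chromosomes were listed for 367 members (20.4%; background 20.7%). Of 613 such interactions in the union, 22 of 17 members were called in all 3 replicates. LINC00955 (chr4:3574251-3580754) had the most, with 46 partners on other chromosomes in the union and 3 in all 3 replicates. Its PIRs numbered 29, 17 and 27.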

How the data were processed

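PCHi-C calls of 3 biological replicates and of the merged replicates were used. The authors mapped reads to GRCh37 with HiCUP, called interactions with CHiCAGO at default settings, and deposited each pair of HindIII fragments with its score, from 5 upwards. The depth of the libraries is not known from these calls. Transcript starts came from GENCODE 44 lifted to GRCh37, while the capture followed an older Ensembl annotation, so some members may have been captured for another gene. All 19075 promoter fragments were bounded by HindIII sites of GRCh37 or chromosome ends. Measures were computed per replicate over the fixed union of fragments with Python 3.11.15, numpy 2.4.6, pandas 2.3.3 and pysam 0.24.0. The scripts were tested on simulated data. The SD is between replicates, and fragments were never treated as replicates.

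The members and lists were chosen with earlier results of these data known. Named are the lncRNAs of the lists, the 10 members with the most same-chromosome PIRs in all 3 replicates, the 10 with the highest mean score with a coding promoter over at least 100 kb, that with the most partners on other chromosomes, and the coding genes at the other ends. Promoter CpG content, PIR sharing and the overlap of PIRs with coding genes were added after the data were seen, as were the canonical-start, CpG and single-fragment alternatives. PIR sharing of LINC01551 is not reported here.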

Additional observations from a re-analysis of the deposited data

How the results depend on the processing

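The excess of PIRs outside coding genes kept its direction in all 21 alternatives (5.93 to 17.3 percentage points), and the longer distance in 19 of 20 (-27.6 to 176 kb). The lower share of coding promoter partners kept its direction in 20 of 21 (-4.90 to 0.763 percentage points). No other measure kept its direction throughout, and the cause was not tested. Differences in mean PIRs per fragment turned at a score of at least 10 (0.0371), in merged calls (0.518), against coding fragments without lncRNA starts (0.0656), without starts of other gene kinds (0.119), outside gene bodies (0.162), over called fragments (0.00999), and among CpG-rich (1.00) and CpG-poor promoters (0.131). The share over 1 Mb turned at a score of at least 10 (-1.19), within gene density quartiles (-3.50, or -2.69 without own starts) and among CpG-poor promoters (-4.08). The share in all 3 replicates turned within density quartiles without own starts (0.0671) and among CpG-poor promoters (2.35), where the distance was -27.6 kb. The median score turned at a score of at least 7 (0.0133), among CpG-rich promoters (0.183) and outside gene bodies, where the difference was 0, and the share between chromosomes outside gene bodies (0.0894). Among CpG-rich promoters the shares of promoter and coding promoter partners also turned (1.41 and 0.763). The share with 1 PIR turned at a score of at least 10 (-1.99), without starts of other kinds (-0.0515), against coding fragments without lncRNA starts (-0.145), with canonical starts (-0.283), and among CpG-rich (-4.98) and CpG-poor promoters (-1.40). Leaving out each replicate in turn moved it between -0.404 and 0.981. The members numbered 632 at a score of at least 10 and 761 outside gene bodies. Contact with the nearest coding promoter that did not adjoin (2.88%) was 2.32% at a score of at least 7, 2.37% at 10, 4.53% in merged calls and 5.95% in either order. Leaving out each replicate gave 2.93% to 3.25%. Both classes come from the same libraries, so each class difference was taken within replicates, paired, and no unpaired fit was run. Contacts scoring under 5 are not listed, which limits every count above.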

Other observations

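The largest number of PIRs in the union, 209, belonged to ENSG00000257880 (chr12:62538922-62540045), with 113, 107 and 96 in the 3 replicates. Of these, 26 were called in all 3, at 2737 to 4152 kb. It falls outside the rule for named genes and was chosen after its values were seen.

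ENSG00000225420 (chr2:88836095-88845138), chosen in the same way, had 22, 29 and 146 PIRs in replicates 1, 2 and 3. Of 156 members with 20 or more PIRs in a replicate, it was the 1 whose highest replicate held at least 3 times the second highest. Of these, 20, 28 and 116 lay at lower and 2, 1 and 30 at higher coordinates, at a median of 348, 334 and 219 kb and a median score of 6.05, 6.35 and 7.90. Whether the library or the locus accounts for replicate 3 was not tested. Without this fragment the difference in median distance between the classes was 128 ± 20.6 kb and that in PIRs per fragment -0.123 ± 0.0307.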
